A study of Caenorhabditis elegans with 2 samples.

Results

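A set of 9 named genes of pharyngeal muscle is described here, taken by name, with earlier results of these data known when they were chosen: the myosin genes myo-1, myo-2 and myo-5, the troponin genes tnc-2, tni-4 and tnt-4, the innexin gene inx-3, the actin gene act-4 and D2096.6. All 9 were found among the 19973 nuclear protein-coding genes of the WBcel235 annotation. Every peak with a summit from 5 kb upstream of the gene to 2 kb downstream of it was taken, whatever its strength. The data come from 1 group of Caenorhabditis elegans with 2 biological replicates: late embryos of hermaphrodites of strain OP159, with the genotype unc-119(ed3) III; wgIs159, taken 3.5 h after egg bleaching. The strain carries TBX-2, a T-box transcription factor, as a stable transgene with GFP and FLAG at the C-terminus, and an anti-GFP antibody was used to pull down its chromatin for sequencing (ChIP-seq). Whole embryos were used, so a peak cannot be assigned to the pharynx or to any other tissue, and the peak lists carry no measure of expression against which the muscle label could be checked. No list from an untagged strain was used, so peaks that any such precipitation would give cannot be told apart from TBX-2 binding.

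The pharynx is the feeding pump of the worm, a tube of muscle that forms in the embryo. Its muscle cells build sarcomeres from their own myosins and troponins, separate from those of the body wall, and contract together through gap junctions made of innexins. Loss of TBX-2 is known to leave the pharynx short of anterior muscle, and the FoxA factor PHA-4 and the NK-2 factor CEH-22 are known activators of pharyngeal muscle genes, with myo-2 as the classic target of both.

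Of the 9 genes, 2 carried peaks of the optimal set, which is the list of 3053 pooled peaks that passed the authors' threshold on reproducibility. These were inx-3, with 1 peak, and act-4, with 4. Over all protein-coding genes 25.5% had an optimal summit in the same window, and on the X chromosome, where inx-3, act-4 and myo-2 lie, 29.8% did. The count for these genes is therefore near the background. All 9 had at least 1 summit of the pooled list, a relaxed list of 25747 peaks that holds background as well, against 73% of all genes. Within 1 kb of an annotated 5′ end, 2 of the 9 had an optimal summit (11.5% of all genes) and 8 had a pooled summit (44.5% of all genes), the exception being myo-1. Summits of both replicates lay within 1 kb of a 5′ end at 7 of the 9, against 32.9% of all genes. The related gene lists described below also had larger shares than all genes for pooled summits and for summits of both replicates there. In all, 37 pooled summits lay in the 9 windows, with a median of 3 for each gene against 2 for each protein-coding gene. The windows had a median length of 10448 bp against 9027 bp over all genes, and held 0.363 pooled summits per kb against 0.252. The act-4 window alone held 12 of the 37 summits, and the related lists were above 0.252 per kb too. No test was made of these counts.

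The sequences under the leading summits are shown because T-box, FoxA and NK-2 words were sought in them, which some hold and others do not. Each runs over the summit, at base 51, and 50 bases to each side of it in build ce11, 5′ to 3′ on the strand of the gene, and capitals mark matches to a searched word. The inx-3 window is chrX:5995744-5995844. The act-4 windows are chrX:4960485-4960585 (upstream of the gene), chrX:4961189-4961289 and chrX:4962431-4962531 (both within it). That of myo-2 is chrX:12467776-12467876, that of tnc-2 chrII:10466637-10466737 and that of tni-4 chrIV:5204290-5204390, all on the plus strand, and that of D2096.6 is chrIV:8369676-8369776 on the minus strand.
inx-3, -362 bp: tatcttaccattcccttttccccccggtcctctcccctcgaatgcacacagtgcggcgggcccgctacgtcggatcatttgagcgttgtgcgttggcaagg
act-4, -86 bp: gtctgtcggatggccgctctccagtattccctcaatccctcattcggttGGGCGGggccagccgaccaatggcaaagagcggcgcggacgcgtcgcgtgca
act-4, 618 bp: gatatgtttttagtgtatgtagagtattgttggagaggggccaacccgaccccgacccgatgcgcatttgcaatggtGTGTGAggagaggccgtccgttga
act-4, 1860 bp: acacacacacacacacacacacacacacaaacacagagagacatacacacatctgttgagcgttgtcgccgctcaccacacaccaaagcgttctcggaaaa
myo-2, -235 bp: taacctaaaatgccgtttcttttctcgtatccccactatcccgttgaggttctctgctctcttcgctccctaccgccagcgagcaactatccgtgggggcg
tnc-2, -165 bp: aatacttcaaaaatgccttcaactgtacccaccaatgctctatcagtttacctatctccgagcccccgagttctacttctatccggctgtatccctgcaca
tni-4, -251 bp: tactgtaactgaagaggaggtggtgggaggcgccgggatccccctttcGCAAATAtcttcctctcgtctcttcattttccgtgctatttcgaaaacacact
D2096.6, -491 bp: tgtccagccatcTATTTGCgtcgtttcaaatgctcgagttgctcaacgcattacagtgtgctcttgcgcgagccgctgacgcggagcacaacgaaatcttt

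The words were sought on both strands: the T-box site GGTGTGA and its core GTGTGA, which every full site contains; the NK-2 site TNAAGTG; the FoxA site TGTTTGC, the variant TGTTTAC of it, the variant TATTTGC and the variant TATTTAC; and words common in worm promoters, namely CTGCGTCT, the Sp1-type word GGGCGG and the repeat GAGAGAGA. None of the 37 windows held GGTGTGA, which lay in 1.32% of all nuclear optimal windows and 1.35% of all nuclear pooled windows. The core GTGTGA was found in 2 of the 37, at act-4 (618 bp) and at a weak inx-3 summit in coding sequence (1121 bp), against 5.65% of pooled windows. TATTTGC was found in 3 of the 37, at tni-4, at D2096.6 and in the act-4 window at -3171 bp, against 1.8% of pooled windows. At tni-4 the match begins 2 bases before the summit and covers it. TATTTAC was found in 1 window of act-4 (2068 bp; 1.42% of pooled windows), TNAAGTG in 1 window of act-4 (1127 bp; 4.59%) and GGGCGG in 1 window of act-4 (-86 bp; 4.34%). The windows of inx-3 at -362 bp, of myo-2 and of tnc-2 held none of the words. The word TGTTTGC was in 0 of the 37 (2.74% of pooled windows), as were TGTTTAC (1.34% of them), CTGCGTCT (3.21% of them) and GAGAGAGA (3.41% of them). These matches are descriptions of the letters in the windows.

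**Figure D1:**
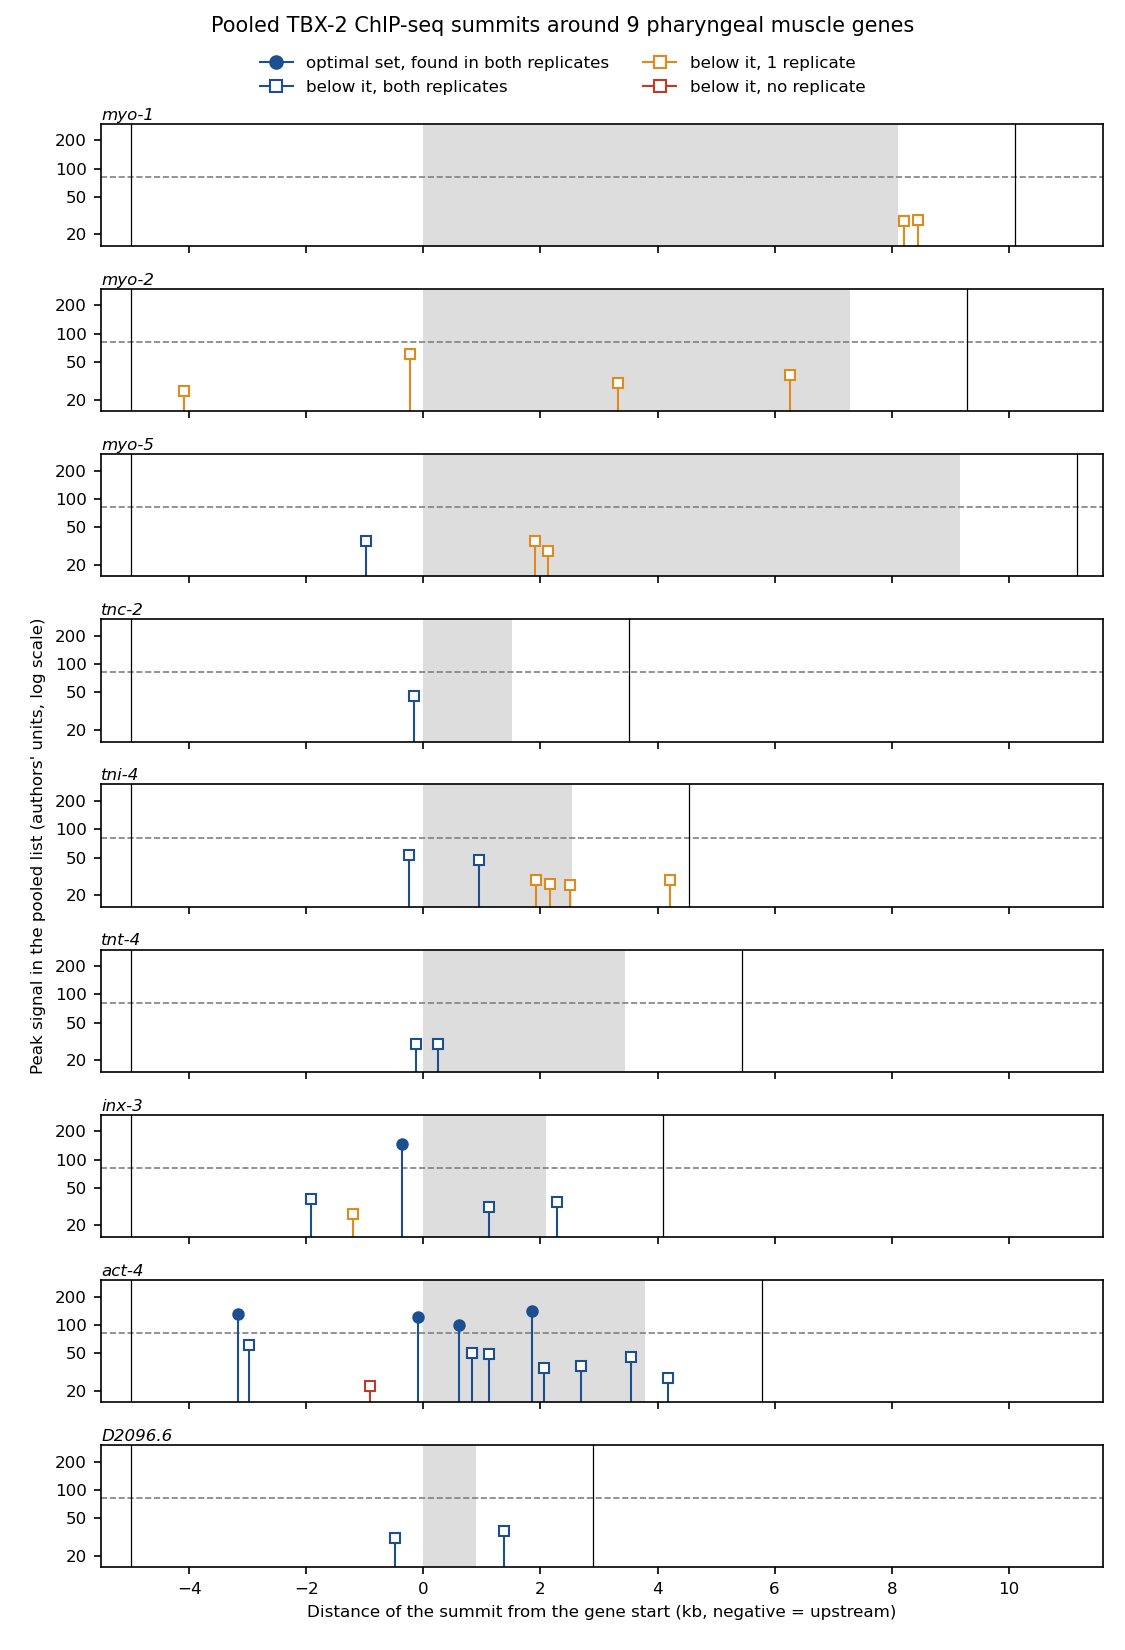
Pooled summits around each of the 9 genes, placed by distance from the gene start (kb) and by the authors' peak signal on a log scale. Grey marks the gene, vertical lines the ends of the window and the dashed line the lowest signal of the optimal set (81.6); filled circles are optimal peaks and open squares weaker ones, coloured by the number of replicates with an overlapping peak. Only inx-3 and act-4 have circles, and act-4 has 12 of the 37 summits.

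Distances below run from the start of the gene, negative values being upstream. Ranks count from the strongest peak of each list by the signal that the authors' caller gave, and they are compared between lists only as a share of the list's length, which was 23800 peaks for replicate 1 and 23216 for replicate 2. A peak was counted as found in a replicate when it overlapped one of that replicate's peaks by at least 1 bp. These replicate lists are relaxed too.

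The gap junction gene inx-3 had the strongest peak of the 9 genes. Its innexin joins muscle cells of the pharynx and is also used in other embryonic tissues. The gene lies on the plus strand of the X chromosome at 5996156 to 5998243, and the peak at 5995576 to 5996011 has its summit at -362 bp from the only annotated 5′ end. Its signal was 147.9, and it ranked 1138 among pooled peaks (top 4.42%), 1545 in replicate 1 (top 6.49%) and 793 in replicate 2 (top 3.42%). The replicates placed it within 3 bp of the pooled summit, so both the position and the rank among the strongest peaks were shared. Only 5.18% of all protein-coding genes had a stronger pooled summit within 1 kb of a 5′ end. The other 4 pooled summits at inx-3 were weak. Those at -1919, 1121 and 2276 bp ranked 10825, 15056 and 12210 and overlapped a peak of each replicate, while that at -1200 bp (rank 19893) overlapped a peak of replicate 1 alone. The summit at 2276 bp lies in coding sequence of the neighbour F22F4.9. Replicate 2 held 1 further peak at 3416 bp (rank 9569), at -68 bp from the 5′ end of F22F4.9, that overlapped no pooled peak.

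Peaks were crowded at act-4, which encodes an actin of pharyngeal and body wall muscle. The window held 12 pooled summits, 4 of them optimal, and 0.365% of all protein-coding genes had 4 or more optimal summits in theirs. Such crowding was also seen at related actin genes: the window of act-1 held 9 pooled summits, 4 of them optimal, that of act-2 held 10 with 3 optimal, and that of act-3 held 9 with 1 optimal, some of these peaks being shared between neighbouring windows. At act-4 the peaks at -3171 and -2970 bp overlap, as do those at 618 and 834 bp and those at 1860 and 2068 bp. The 12 summits are thus not 12 separate sites. The act-4 gene spans 4960621 to 4964413 of the X chromosome on the plus strand and has 2 annotated 5′ ends, the second lying 2254 bp downstream of the first. The optimal peak with the highest signal (140.8, rank 1243, summit at 1860 bp) lies in an intron, at -394 bp from this second 5′ end. It ranked 1190 in replicate 1 and 1155 in replicate 2, a top 5% and a top 4.98%. Its window opens with a run of CA repeat 29 bases long, which can be seen in the sequence above. This peak is narrow, 175 bp against the usual 436 bp, and all of the 50-base words in it occur once in the genome.

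A second optimal peak of act-4 sits at the promoter of its first 5′ end, with the summit at -86 bp. With a signal of 120.4 it ranked 1650 among pooled peaks, 2503 in replicate 1 (top 10.5%) and 1070 in replicate 2 (top 4.61%). The GGGCGG word in the printed window starts 1 base before this summit. The third lies in an intron at 618 bp (signal 99.4, rank 2228) and differed more between replicates: 1258 in replicate 1 (top 5.29%) and 5385 in replicate 2 (top 23.2%). It is the only one of the 5 optimal peaks in these windows that was outside the strongest 3053 of a replicate. The fourth, at -3171 bp (signal 130.5, rank 1421), ranked 1483 in replicate 1 and 1336 in replicate 2, and its nearest 5′ end is not that of act-4. It lies at -32 bp from the 5′ end of M03F4.4, which is transcribed away from act-4, and its window, which overlaps an exon, is not printed.

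Of the 8 weaker act-4 summits, 7 overlapped a peak of each replicate and 1 overlapped none. The 7 ranked between 4822 and 19290. The strongest of them, at -2970 bp (rank 4822), is beside the peak at M03F4.4. Next came summits in introns at 834 bp (rank 6824) and 1127 bp (rank 7151), and one in the 3′ UTR at 3545 bp (rank 8111). The summit at 2068 bp (rank 12778) overlaps the same replicate peaks as the optimal one at 1860 bp, so its support is not separate. At 2690 bp a summit in coding sequence (rank 11689) lies where 82.4% of the 50-base words occur once in the genome and the others more than once. Whether this affected the peak was not tested. The summit at -912 bp, rank 25215 of 25747, overlapped no replicate peak. The last of the 12, at 4171 bp (rank 19290), lies in an intron of M03F4.6. Replicate 1 also held a peak at -1479 bp (rank 17567) that overlapped no pooled peak.

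Among the myosin genes, myo-2 had the strongest peak, and only replicate 2 listed a peak that overlapped it. The gene encodes a myosin heavy chain made in pharyngeal muscle and lies on the plus strand of the X chromosome at 12468061 to 12475348. The pooled peak at 12467608 to 12468043, with its summit at -235 bp, ranked 4776 (top 18.5%, signal 61.5), below the optimal set. The non-coding RNA genes T18D3.10, T18D3.13 and T18D3.14 lie within 250 bp of it. The authors' q-value for it was 0.0238, and those of the other genes are given below. Replicate 2 placed a peak 3 bp away at rank 3305 of its list (top 14.2%, signal 34.43). Replicate 1 had none there, and its nearest summit was 3563 bp away. Of the 4947 pooled peaks between rank 3054 and rank 8000, 93.3% overlapped a peak of each replicate and 6.63% a peak of 1, so the myo-2 promoter is among the few of that strength seen in 1 replicate. The other 3 summits at myo-2 were each seen in 1 replicate as well. Those at 3327 bp (rank 16499) and 6269 bp (rank 11676) lie within the gene and overlapped a peak of replicate 1, and that at -4086 bp (rank 22259), in an intron of T18D3.5, one of replicate 2.

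The myo-2 promoter held an NK-2 word and a FoxA word that share a base, outside the summit window. The 250 bases before the 5′ end, chrX:12467811-12468060 on the plus strand, are printed with both matches in capitals, and the summit is the base at position 16. The FoxA word TATTTGC starts at -144 bp from the 5′ end and the NK-2 match, on the other strand, at -138 bp. Their centres lie 94 and 100 bp from the summit. TATTTGC was found in 7.37% and TNAAGTG in 17.4% of all promoters, counted from 250 bp before a 5′ end to 50 bp after it.
myo-2, 250 bases upstream: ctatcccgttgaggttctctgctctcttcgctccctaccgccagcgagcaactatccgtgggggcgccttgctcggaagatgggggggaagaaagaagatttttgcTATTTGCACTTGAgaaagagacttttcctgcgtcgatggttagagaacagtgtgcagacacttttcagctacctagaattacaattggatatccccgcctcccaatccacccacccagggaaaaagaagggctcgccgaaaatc

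The myosin gene myo-5 had weak peaks and myo-1 had none near its start. At myo-5, on the plus strand of chromosome V (8108970 to 8118131), the summit at -984 bp ranked 12522 with a signal of 35.33. It ranked 22747 in replicate 1 (top 95.6%) and 12952 in replicate 2 (top 55.8%), near the end and the middle of their lists. The non-coding RNA gene F58G4.8 lies within 250 bp of this summit. Intronic summits, at 1910 bp (rank 12481) and 2128 bp (rank 18450), overlapped the same peak of replicate 1, which ranked 7185, and no peak of replicate 2. Each replicate also held 1 peak that overlapped no pooled peak, at 6948 bp in replicate 1 (rank 15061) and at 138 bp in replicate 2 (rank 16934).

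The myosin heavy chain gene myo-1, on the minus strand of chromosome I (7258946 to 7267057), had no pooled, replicate 1 or replicate 2 summit between 5 kb upstream and its end. Its 2 pooled summits lay beyond the 3′ end, at 8212 and 8441 bp from the start, with ranks 18662 and 18407. The stronger of them is in coding sequence of the neighbour ztf-15, a zinc finger gene. Both overlapped 1 peak of replicate 2 (rank 10374) and none of replicate 1.

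The 3 troponin genes each had a summit within 1 kb of a 5′ end, and none reached the optimal set. Troponin makes contraction depend on calcium: troponin C binds calcium, troponin I inhibits the actin and myosin interaction, and troponin T holds the complex to tropomyosin. At the troponin I gene tni-4, on the plus strand of chromosome IV (5204591 to 5207124), a summit at -251 bp ranked 6153 with a signal of 52.92. It ranked 4359 in replicate 1 (top 18.3%) and 14770 in replicate 2 (top 63.6%), with summits 139 and 1 bp from the pooled one. The intronic summit at 954 bp (rank 7620) leaned the other way, with rank 16133 in replicate 1 (top 67.8%) and 5749 in replicate 2 (top 24.8%). Neither position was strong in both replicates. The other 4 summits of tni-4, from 1919 to 4206 bp, ranked from 17256 to 21153 and were seen in replicate 1 alone, those at 2161 and 2514 bp sharing 1 of its peaks. The piRNA genes 21ur-8163 and 21ur-4432 lie within 250 bp of the summits at 954 and 1919 bp.

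A site upstream of tni-4 was listed by both replicates and is missing from the pooled list. Replicate 1 had a peak with its summit at -1750 bp (rank 9008, top 37.8%) and replicate 2 one at -1728 bp (rank 6135, top 26.4%). The summits are 22 bp apart, and neither peak overlaps a pooled peak. Over the whole series 352 peaks of replicate 1 (1.48%) overlapped a peak of replicate 2 but no pooled peak. With protein-coding genes alone counted, this site is intergenic and tni-4 has the nearest 5′ end. The piRNA gene 21ur-8529 lies within 250 bp of both summits.

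At the troponin C gene tnc-2, on the plus strand of chromosome II (10466852 to 10468358), the only pooled summit lay at -165 bp, with a signal of 45.75 and rank 7895. It ranked 13093 in replicate 1 (top 55%) and 7504 in replicate 2 (top 32.3%), at 23 and 1 bp from the pooled summit. The words TNAAGTG (17.4% of all promoters) and GTGTGA (15.4% of them) were both in its promoter but not in the summit window. Replicate 2 alone had another peak at -2006 bp (rank 15358), beside the 5′ end of sdz-37. At the troponin T gene tnt-4, on the minus strand of chromosome V (1989471 to 1992918), the summits at -124 bp (rank 16895, signal 29.62) and 254 bp (rank 17030, signal 29.48) were close in strength. The replicates placed their peaks differently: the peak of replicate 1 (rank 15482) was 53 bp from the first of these and that of replicate 2 (rank 11556) was 1 bp from the second. A peak of replicate 2 alone lay at -3880 bp, in coding sequence of alh-5.

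D2096.6 is nested on the minus strand inside aagr-1, a gene on the plus strand of chromosome IV, and spans 8368344 to 8369235. Both of its pooled summits lie in introns of aagr-1. That at -491 bp ranked 15741 (signal 30.9), with rank 14934 in replicate 1 (top 62.7%) and 12708 in replicate 2 (top 54.7%). The summit of replicate 2 was 207 bp away, that of replicate 1 4 bp. The one downstream of the gene, at 1386 bp, ranked 11897 (signal 36.36), with rank 12250 in replicate 1 and 21272 in replicate 2, and its nearest 5′ end is that of aagr-1. Both were thus near or below the middle of each list. A stronger pooled summit near a 5′ end was found at 33.9% of all genes for D2096.6, 35.4% for tnt-4, 29.4% for myo-5, 22% for tnc-2, 18.8% for tni-4 and 15.8% for myo-2. The authors' q-values for these summits were 0.672 at D2096.6, 0.719 at tnt-4 and 0.498 at myo-5. They were 0.188 at tnc-2, 0.0718 at tni-4 and 0.0238 at myo-2. The 2 myo-1 summits beyond its 3′ end had 0.776 and 0.784, and the optimal peaks of inx-3 and act-4 had 0.00106.

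**Figure D2:**
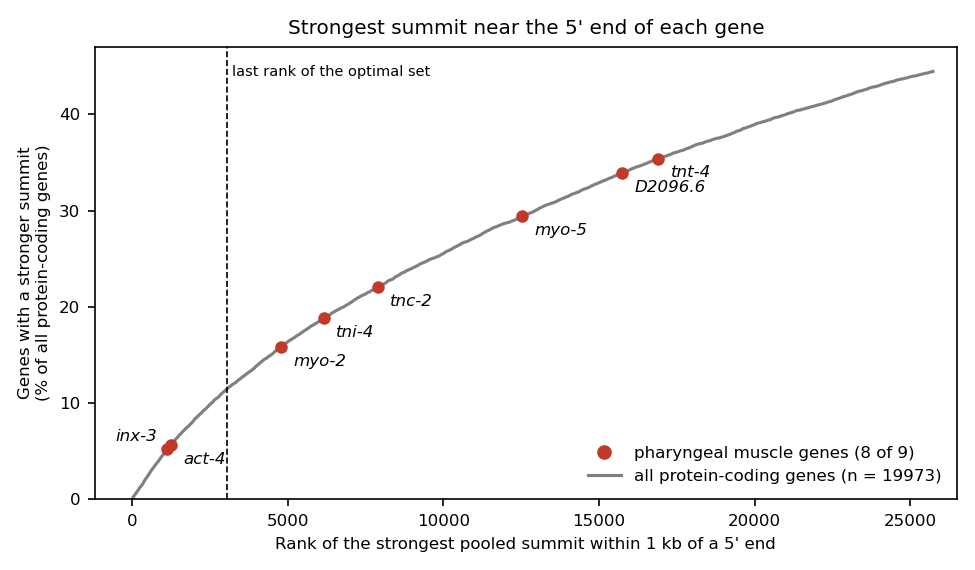
Rank of the strongest pooled summit within 1 kb of a 5′ end (horizontal axis, 1 being the strongest) against the percentage of all 19973 protein-coding genes with a stronger one. The line covers all genes and the points are the 8 of 9 genes with such a summit; inx-3 and act-4 stand left of the dashed line at rank 3053 and the other 6 to its right.

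Support by replicates followed the strength of the peaks. Of the 37 pooled summits, 23 overlapped a peak of each replicate, 9 a peak of replicate 1 alone, 4 a peak of replicate 2 alone and 1 no replicate peak. Over all pooled peaks 56.6% overlapped a peak of each replicate and 37.4% a peak of 1, so the count of 23 is near the background. All 5 optimal peaks were found in both replicates, against 99.8% of all pooled peaks of rank 1 to 3053. The optimal set was itself chosen on reproducibility, so this overlap is no separate support. Of the 5, 4 were among the strongest 3053 of each replicate. From rank 3054 to 8000, 6 of 7 were found in both, against 93.3% of all pooled peaks in that range. From 8001 to 16000 it was 9 of 11 against 58.4%, and from 16001 on 3 of 14 against 22.8%. Without act-4, 12 of 25 pooled summits were found in both replicates, so this gene supplied 11 of the 23.

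**Figure D3:**
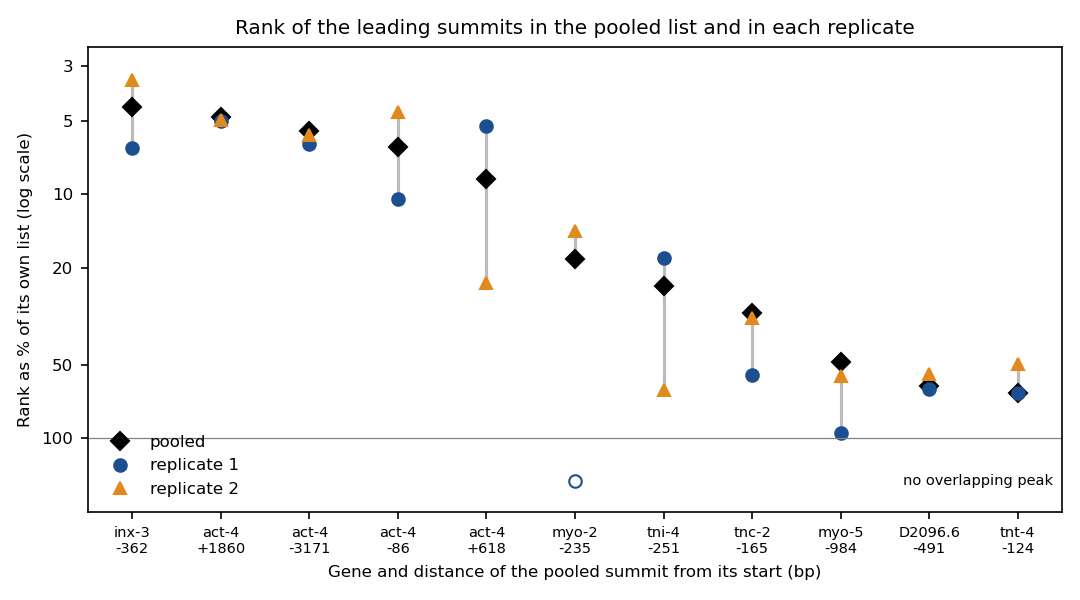
Rank of 11 leading pooled summits as a percentage of the list's length (log scale, strongest at the top) in the pooled list (black diamonds), replicate 1 (blue circles) and replicate 2 (orange triangles). They are the strongest summit within 1 kb of a 5′ end at 8 genes and the other 3 optimal peaks of act-4; the open circle marks the myo-2 promoter, where replicate 1 has no overlapping peak.

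The 37 summits fell in introns 14 times, in promoters (the 1 kb upstream of a 5′ end, outside gene bodies) 10 times, in coding sequence 8 times, in other intergenic sequence 3 times and in 3′ UTRs 2 times. Over all nuclear pooled summits these classes held 31.7%, 19.6%, 18.5%, 23.9% and 3.64%. For 26 of the 37 the nearest protein-coding 5′ end was that of the gene itself. The remaining 11 are nearer to a neighbour, so the window rule assigns to these genes some peaks that other genes could claim.

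The full T-box word GGTGTGA lies at act-4 outside the summit windows. It starts at -6 bp from the second 5′ end of act-4. Its centre lies 183 bp from the nearest pooled summit, the weak one at 2068 bp. No other of the 9 genes had GGTGTGA in its promoter, and 3.04% of all promoters held it. A separate core GTGTGA, a word in 15.4% of all promoters, starts 43 bp from the first 5′ end of act-4. Its centre lies 132 bp from the summit at -86 bp. The promoter of myo-5 held the FoxA words TGTTTGC (start at -141 bp; 8.96% of all promoters) and, further on, TATTTAC (start at -116 bp; 8.19% of them), and that of myo-1 the NK-2 word TNAAGTG (start at -59 bp; 17.4% of them).

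The windows were bounded by strong peaks of other genes in 3 cases. Just outside the window of tni-4, by 492 bp, lay an optimal peak of rank 893 with its nearest 5′ end at nbet-1. The next pooled summit outside the window of D2096.6 ranked 410 and lay 1355 bp beyond it, 842 bp downstream of the 5′ end of D2096.7, and that outside the window of myo-1 ranked 258 and lay 5267 bp beyond it, upstream of bub-1. For the other 6 genes the next summit outside lay 556 to 5739 bp away and ranked from 4729 to 24860. The weakest optimal peak of the 9 windows was that of act-4 at 618 bp (rank 2228), and the strongest peaks below the set were those at myo-2 (rank 4776) and at -2970 bp of act-4 (rank 4822).

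Related genes were described in the same way. Of 12 other genes of pharyngeal muscle contraction, excitation and coupling, 3 had an optimal summit within 1 kb of a 5′ end: eat-6, a sodium pump subunit (rank 550), and the neighbouring myosin light chain genes mlc-2 (rank 1846) and mlc-1 (rank 2959). In their 5 kb and 2 kb windows 5 of 12 had one. Of 15 relatives of the 9 genes in other muscles and tissues, 4 had an optimal summit within 1 kb: unc-54, the main body wall myosin (rank 1104), the actin genes act-2 (rank 1420) and act-1 (rank 2899) and the troponin T gene tnt-2 (rank 1723). In the windows 7 of 15 had one. Neighbouring genes shared some of these peaks: act-1 and act-2 had the same strongest window peak (rank 1007), and mlc-1 and mlc-2 another (rank 1846). The counts are thus of genes and not of separate peaks. The body wall myosin myo-3 (rank 4099), the troponin I gene unc-27 (rank 4399) and the troponin T gene mup-2 (rank 4015) were, like myo-2 and tni-4, below the set. Of 22 other innexin genes 2 had an optimal summit within 1 kb, inx-2 (rank 1133) and inx-12 (rank 2040), and 3 of 22 had one in the window. Over all protein-coding genes, 11.5% had an optimal summit within 1 kb of a 5′ end and 25.5% had one in the window. The strongest such rank had a median of 7024 over the 8 pharyngeal muscle genes with a summit there and 8017 over all genes with one.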

How the data were processed

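Both replicates were used, with 4 peak lists on build ce11. Per the labels' accompanying file lists, the authors called relaxed peaks per replicate and on pooled alignments, with a control for each, and thresholded the pooled peaks on the irreproducible discovery rate to give the optimal set. The deposited lists give a peak signal on a scale of each list's own and a -log10 q-value. Aligner, caller and thresholds: not given in the sources used here. Read depth is unknown, and nothing was rescaled.

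The 9 genes and the comparison lists were chosen with earlier results of these data known, and likewise the motifs. Windows ran from 5 kb upstream to 2 kb downstream of the Ensembl release 115 gene model (WBcel235, the ce11 sequence). A 5′ end is that of any annotated transcript. Summits were placed by coding sequence, UTR, intron, promoter and other, in that order. A replicate peak overlapping by at least 1 bp, nearest by summit, counted as support, and 1 replicate peak could support several pooled peaks. By rule, the genes named were the 9, the gene with the 5′ end nearest to each optimal summit and to the strongest pooled summit of each window, and up to 5 members of each comparison list with the strongest optimal summits within 1 kb of a 5′ end. Others (hosts and neighbours of weaker summits, myo-3, unc-27, mup-2, act-3 and genes just outside windows) were added after their values were seen. Sequences came from the RefSeq copy of WBcel235. No test across genes was made. Window counting was tested on planted summits. The overlap search was run on slightly shifted peaks of replicate 1, which had to overlap their own list, so it checked the code only. Alternatives were other windows, overlap rules, stronger peaks, each replicate alone and 1 row per interval. Lists on ce10 were not used here. Python 3.11.15, pandas 2.3.3, NumPy 2.4.6 and Matplotlib 3.10.9 were used.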

Additional observations from a re-analysis of the deposited data

How the results depend on the processing

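Of 27 alternatives over 6 counts, 26 stayed within 1.5 times the reported count. In every alternative run for them, inx-3 and act-4 were the genes with an optimal summit, both in the windows and near a 5′ end. With the strongest 1526 peaks of the optimal set the optimal summits in the windows numbered 3, against 5, by construction with fewer peaks; these were the inx-3 promoter peak and the act-4 peaks at 1860 and -3171 bp. With the strongest 3053 peaks of replicate 1 or of replicate 2 alone they numbered 5 and 4. Pooled summits numbered 33 with windows from 2 kb upstream to 1 kb downstream, against 37. The relaxed lists of replicate 1 and replicate 2, taken in place of the pooled list, held 31 and 30 summits in the windows. Some of these overlapped no pooled peak. Pooled summits found in both replicates ranged from 19, with either stricter overlap rule, to 23. No paired analysis was possible because there was 1 group. Without read depth or counts, weak peaks carry no counting error here, and a missing peak in 1 replicate, as at myo-2, says only that the authors' caller listed none there.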
